A study of Mus musculus with 8 samples.

Results

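Left ventricle taken 3 days after ligation of the left anterior descending coronary artery was compared with left ventricle taken 3 days after a sham operation in which the artery was not tied. These are 4 of the 8 libraries of the series, 2 for myocardial infarction (MI) and 2 for sham, and the other 4 libraries are the same pair of groups at 1 day. All animals were male C57BL/6 mice of 8 to 12 weeks, with no transgene or drug named, and each library is 1 mouse. The sampled tissue was the free wall of the left ventricle, described as ischemic tissue in the operated animals. Nothing in the labels says how much border or uninjured muscle a piece held. The libraries are called A and B here by the order of their columns, and A and B of different groups have nothing in common.

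Tying this artery stops the blood supply to much of the left ventricular wall, and the heart muscle cells there die within hours. Neutrophils enter first, then monocytes that become macrophages and clear the dead muscle. Within days fibroblasts divide, turn into contractile myofibroblasts and lay down the collagen that becomes the scar. In whole tissue a lower level of a muscle gene can come from fewer muscle cells or from less RNA of that gene per cell, and these cannot be told apart in such data; the same holds for the genes of every other cell type described below.

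RNA depleted of ribosomal RNA was sequenced in read pairs. The deposited gene counts summed to 18831791 and 19845961 in sham A and B and to 21055785 and 25041386 in MI A and B. Of 24062 genes listed, 15508 were tested. The test was edgeR's quasi-likelihood test over all 8 libraries, with p-values adjusted by Benjamini and Hochberg over all genes tested, and a gene is called at an adjusted p under 0.05. Where a gene is said to lead a list, it is the called member with the largest change among those with a mean of at least 1 CPM. Levels are CPM (counts-per-million) after scaling by trimmed mean of M values (TMM), and log2 changes are MI over sham. The spread in each group rests on 2 mice. In the transcript table, RNAs encoded in mitochondrial DNA took 16.6% and 15.7% of the reads in sham A and B and 6.51% and 4.19% in MI A and B; none of these genes could be tested in the gene counts.

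The scale of the change was large. Of all genes tested, 8591 were called, which is 55.4%: 4912 were higher after MI (31.7%) and 3679 lower (23.7%). The number higher was 2986 when MI A was left out and 2944 without MI B, fits in which the remaining MI library is assumed to vary like the other groups. Changes of at least 2-fold were called upward in 3688 genes (23.8%) and downward in 2863 (18.5%). At 16-fold or more, 393 genes were higher and 329 lower. The median log2 change over all genes tested was 0.16. That zero point moves with the scaling: the median was 0.43 with library size alone, 0.03 with size factors of the DESeq2 kind, and -0.05 when the 4 libraries of 3 days were fitted alone. The share of calls that were higher, 57.2%, became 66.7%, 51.4% and 47.8% in the same order. Small changes are therefore best read against that shift, while the changes described below are mostly many times larger.

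Libraries of 1 group were close to each other relative to this. Among 11319 genes that averaged 5 CPM or more, 88 (0.777%) differed by more than 2-fold between MI A and MI B and 430 (3.80%) between sham A and sham B. Groups without overlap were common. Of all genes tested, 45.9% had both MI libraries above both sham libraries in CPM and 35.1% had both below. In the transcript table summed to genes, 8039 of the called genes could be tested again, 8023 changed in the same direction and 7259 of these were called there too; 2 were called in the opposite direction. All 8591 had the same sign in the authors' deposited table of their own comparison, and 7875 were called in it. These tables come from the same libraries, so this is a check of the counting and not a repeat of the experiment.

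The most abundant RNAs of the ventricle changed rank. The 100 genes with the most counts after sham held 33.1% of the counts in sham A and 37.8% in sham B, but 12.4% in MI A; 86 of them fell and 4 rose, with a median log2 change of -2.79. Titin (Ttn), the spring of the sarcomere, stood at 48070 and 105000 CPM in the sham libraries and at 4543 and 4165 CPM after MI. Both sham libraries were far above both MI libraries, and the log2 change was -4.14 (SE 0.38, adjusted p = 1.80e-05). Malat1, a nuclear noncoding RNA, was at 10880 and 23680 CPM in sham A and B and at 8349 and 7964 CPM after MI. Its fall of 1.08 on the log2 scale (adjusted p = 0.0135) was not called without sham B, where the change was -0.40, or without MI B, where it was -1.28. Tmsb4x, thymosin beta 4, which binds actin monomers and is abundant in motile cells, was among the 5 most counted genes after MI. It stood at 895 and 419 CPM after sham and at 6159 and 5004 CPM after MI, a log2 change of 3.09 (adjusted p = 5.65e-05). The RNA components of RNase MRP and RNase P, Rmrp and Rpph1, and the ribosomal RNA precursor Rn45s also ranked there.

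**Figure D1:**
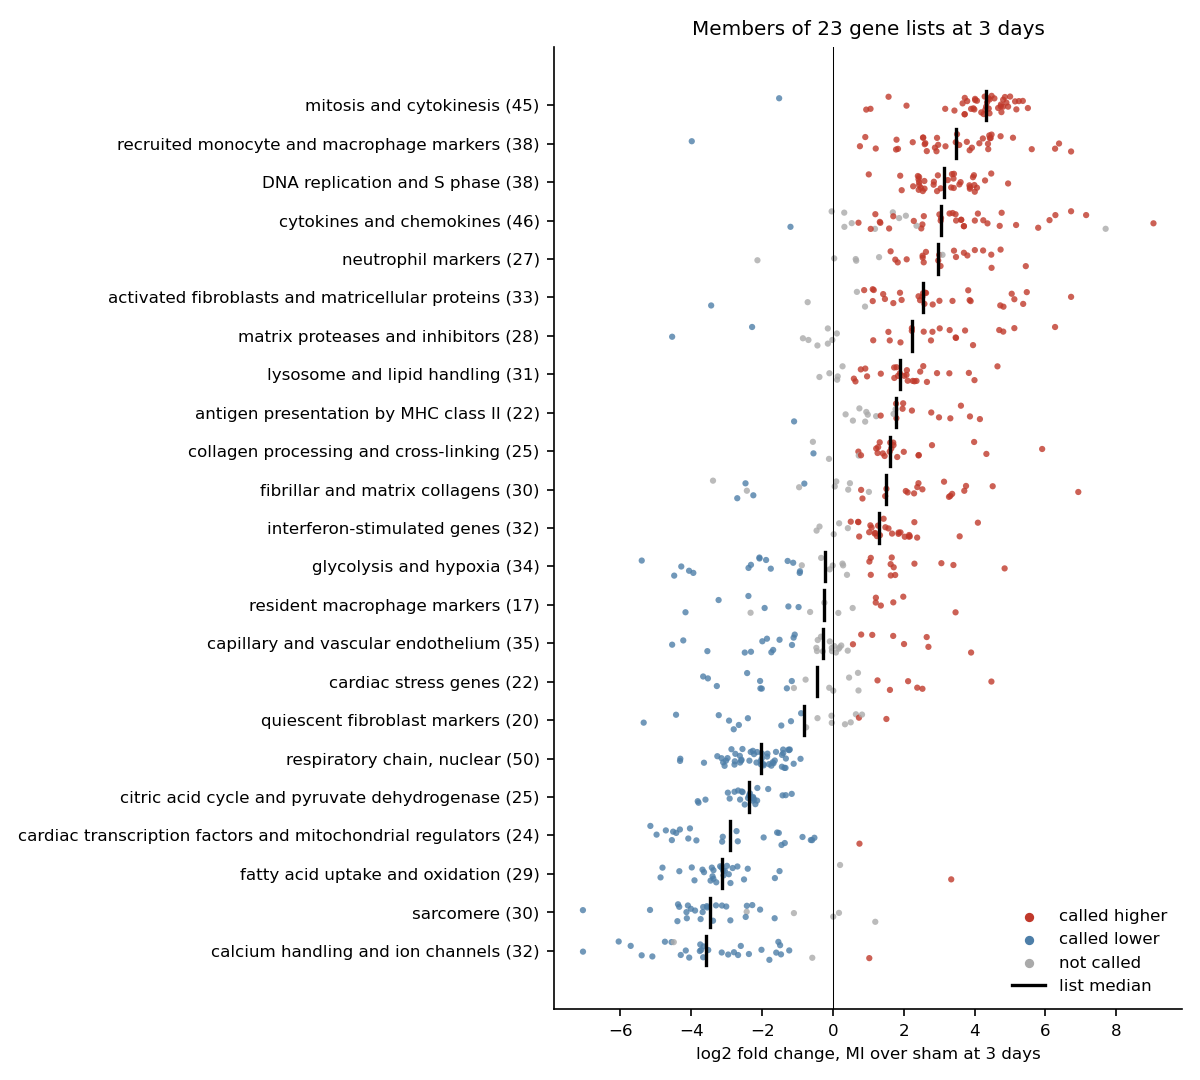
Log2 fold change of MI over sham at 3 days for each tested member of 23 gene lists, with the number of members in brackets; each point is 1 gene, red where called higher, blue where called lower and grey where not called, and the black bar is the list median. The 6 lists of contraction, muscle regulators and mitochondrial energy supply lie almost wholly to the left, and mitosis, macrophage, DNA replication and cytokine genes lie furthest to the right.

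The contractile apparatus fell almost throughout. Of 30 tested sarcomere genes 25 were lower and none higher, against 23.7% lower over all genes, with a median log2 change of -3.47. Myh6, on chromosome 14 (54941921 to 54968017, GRCm38.p6), encodes alpha myosin heavy chain, the fast motor of the adult mouse ventricle. Its level was 22290 and 25230 CPM in sham and 630 and 695 CPM after MI. The groups did not overlap, and the log2 change was -5.16 (SE 0.34, adjusted p = 2.87e-06). The widest fall in the list was in Myh7b, a related slow myosin, from 86.4 and 199 CPM to 1.35 and 0.816 CPM (log2 change -7.06). Myl2 and Myl3, the regulatory and essential light chains of ventricular myosin, changed by -4.37 and -4.39 on the log2 scale, and cardiac alpha actin (Actc1) by -3.39. Summed over the list, sarcomere genes reached 130200 and 191600 CPM in sham and 14890 and 13980 CPM after MI.

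Beta myosin heavy chain, Myh7, is the fetal form that rises in overloaded mouse hearts. It fell here too, from 660 and 689 CPM to 69.4 and 37.2 CPM, a log2 change of -3.66 (adjusted p = 8.77e-06). The transcript table gave a smaller fall, of 2.24. Because Myh6 fell further, the log2 ratio of Myh6 to Myh7 went from 5.08 and 5.19 in the sham libraries to 3.18 and 4.22 after MI.

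Genes that carry the cardiac action potential and calcium cycle fell together with the filaments. Of 32 tested, 29 were lower and 1 higher, with a median of -3.59. Scn4b, a beta subunit of the sodium channel, fell from 59.4 and 65.9 CPM to 0.369 and 0.544 CPM, a log2 change of -7.06 (adjusted p = 1.29e-06); that is 2354 counts in the 2 sham libraries and 25 after MI. Kcnip2, which partners the channel of the transient outward potassium current, fell from 166 and 152 CPM to 2.83 and 2.01 CPM (log2 change -6.05). Hrc, a calcium-binding protein of the sarcoplasmic reticulum, went from 951 and 1044 CPM to 20.5 and 17.7 CPM (log2 change -5.71). Atp2a2, the pump that refills the reticulum, was among the 5 most counted genes of sham ventricle, at 16830 and 17720 CPM, and fell to 708 and 758 CPM. In all of these both MI libraries lay below both sham libraries, as they did in 35.1% of all genes tested. The 1 gene that rose was Gja5, the connexin of conduction tissue, arteries and atria, at 9.61, 6.10, 16.5 and 15.6 CPM; its call (log2 change 1.03) was lost without either MI library or without sham B.

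Genes of the respiratory chain and the citric acid cycle fell less steeply and more evenly. All 50 tested nuclear genes of the respiratory chain were lower, with a median of -2.04, as were all 25 genes of pyruvate entry and the citric acid cycle, with a median of -2.37. Ndufs1, a core subunit of complex I, went from 1007 and 909 CPM to 207 and 202 CPM (log2 change -2.23, adjusted p = 6.18e-06). The largest falls in the chain belonged to muscle forms of cytochrome oxidase subunits: Cox6a2 fell by 4.32, Cox7a1 by 4.31 and Cox8b by 3.64 on the log2 scale. In the citric acid cycle large falls were seen in Ogdh (-3.82) and in Idh2, from 2491 and 2058 CPM to 159 and 169 CPM. Of 29 genes that take up and burn fatty acids 27 were lower and 1 higher, with a median of -3.15. Ppara, the nuclear receptor that drives this pathway, fell from 112 and 185 CPM to 4.55 and 5.58 CPM, and Acsl1, which activates fatty acids for entry, from 1283 and 1394 CPM to 64.0 and 68.5 CPM. The highest change in this list was 3.34. Fabp5, a fatty acid binding protein of macrophages and endothelium, is not in the list. It rose from 20.4 and 10.8 CPM to 170 and 200 CPM (log2 change 3.57).

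Transcription factors of heart muscle and of its mitochondria fell as well: 23 of 24 tested were lower and 1 higher, with a median of -2.92. Esrrb, a nuclear receptor of the ERR family, fell from 31.1 and 34.2 CPM to 0.901 and 0.918 CPM. Perm1, which acts with the ERR receptors in muscle, fell by 4.98 and Klf15 by 4.72 on the log2 scale. Nrf1, a general regulator of genes for mitochondrial proteins, was the 1 higher, at 19.8 and 23.4 against 35.5 and 37.1 CPM; its log2 change of 0.75 was not called in any fit that left out 1 MI library of 3 days or sham A. Among the 8 steepest falls of the whole table with a mean of at least 5 CPM, beside Scn4b and Myh7b, were Scn4a, a sodium channel best known from skeletal muscle (-6.64), Mylk4, a myosin light chain kinase of muscle (-6.27), Wnk2, a kinase (-6.15), Smco1 (-6.14) and Ces1d, a carboxylesterase that fell from 132 and 120 CPM to 1.27 and 1.56 CPM. After MI 17 counts remained for Smco1 in both libraries together, so such folds carry wide counting error.

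Chamber identity was checked against markers. All 8 ventricular genes tested were lower, with sums of 37120 and 39420 CPM in sham and 1573 and 1556 CPM after MI, so the tissue labelled ventricle carried strong ventricular RNA in the sham libraries. Of 10 atrial genes 2 were higher and 3 lower, against 31.7% and 23.7% over all genes. In the fit of the 4 libraries of 3 days alone, 6 were lower. Kcnj3, a potassium channel subunit of atria, had the largest change, from 49.1 and 66.5 CPM to 2.01 and 1.39 CPM. Myl7, the atrial light chain, was near 0 in the gene counts, with 54 counts in both sham libraries together and 14 after MI. Nppa, the atrial natriuretic peptide that ventricles re-express under load, rose from 144 and 187 CPM to 495 and 514 CPM (log2 change 1.61, adjusted p = 2.85e-04). Nppb, its ventricular relative, stood at 507 and 316 CPM in sham and 865 and 479 CPM in MI; these groups overlap and the change of 0.71 missed the threshold (adjusted p = 0.064); it was called in edgeR without sham A (adjusted p = 0.0388) and with library size alone (0.96).

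Cardiac stress genes as a list did not move one way. Of 22 tested, 6 were higher and 9 lower, against 31.7% and 23.7% over all genes, with a median of -0.44. Fewer were called higher without MI A. Ctgf, a matricellular protein induced by stretch and by TGF-beta, rose from 102 and 62.0 CPM to 597 and 346 CPM (log2 change 2.53). Cited4 changed by -3.53 and Fhl2, a LIM protein of the sarcomere, by -3.28 on the log2 scale. Sprr1a, a small protein known for induction in injured neurons and stressed heart muscle, had 15 counts in both sham libraries together and 2040 in the MI libraries, and was at 21.5 CPM in MI A and 51.5 CPM in MI B.

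**Figure D2:**
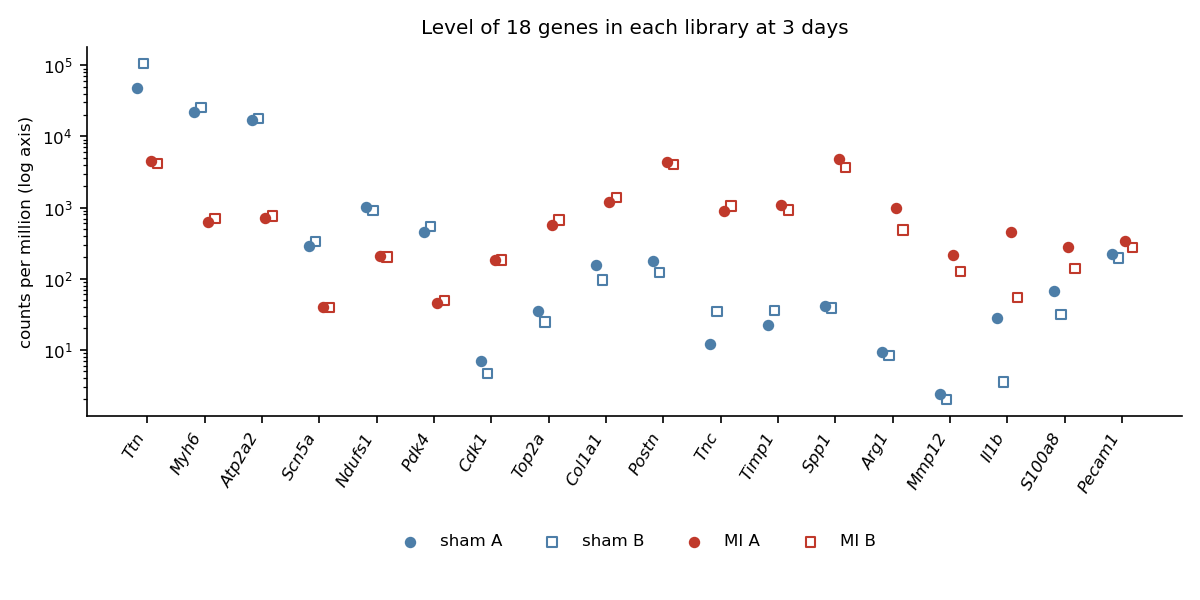
CPM, on a log axis, of 18 genes in the 4 libraries of 3 days (circles library A, squares library B; blue sham, red MI). Myh6 drops from 22290 and 25230 to 630 and 695 CPM and Spp1 rises from 41.0 and 38.6 to 4797 and 3631 CPM; for Il1b the 2 MI libraries stand wide apart, at 456 and 54.1 CPM.

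Many muscle proteins have a close relative that other cells use, and 27 such pairs were compared within each library. Myh6 and Pfkm recur as the muscle gene, so the pairs are not all separate. The muscle or resting-state gene was lower after MI in all 27 pairs, against 23.7% lower over all genes. Its relative was higher in 14 and lower in 4, against 31.7% and 23.7%. The ratio of the pair was lower after MI in 26. This ratio does not depend on how libraries are scaled to each other. In creatine kinase, the enzyme that buffers ATP, muscle-type Ckm fell from 1587 and 1606 CPM to 41.1 and 44.3 CPM, while brain-type Ckb was at 48.2, 41.1, 50.3 and 59.8 CPM with no call (log2 change 0.30). In lactate dehydrogenase, heart-type Ldhb fell by 4.28 on the log2 scale and Ldha was not called (0.29, adjusted p = 0.156; called at 0.55 with library size alone), so that the log2 ratio went from 1.16 and 1.07 to -3.55 and -3.34. Glucose transporter GLUT4 (Slc2a4) fell from 411 and 411 CPM to 10.9 and 8.64 CPM and GLUT1 (Slc2a1) rose from 17.6 and 16.2 CPM to 65.1 and 39.9 CPM, a call lost without MI A (1.03), sham A or sham B.

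Crossed ratios of this kind reached well beyond metabolism. Lactate transporter Slc16a1 fell by 2.38 while Slc16a3, the exporter of glycolytic cells, rose by 3.40. Elongation factor Eef1a2, the form of muscle and nerve, fell by 4.01 while Eef1a1 rose from 860 and 472 CPM to 3016 and 2877 CPM. Rpl3l, the ribosomal protein paralog found in heart and skeletal muscle, fell from 129 and 134 CPM to 1.84 and 2.31 CPM while Rpl3 rose from 31.0 and 26.4 CPM to 155 and 142 CPM. Alpha actinin went from Actn2 (-3.56) to Actn1 (2.95), and the laminin-binding integrin Itga7 (-2.02) and the fibronectin receptor Itga5 (1.68) moved in the same crossed way. For cytochrome oxidase the ubiquitous partners changed less than the muscle forms. Cox8a was not called (0.06). Cox7a2 fell by 0.72, a call lost without MI B or sham A and with library size alone. Cox6a1 rose by 0.54. Its call was lost when the 4 libraries of 3 days were fitted alone (0.31) and when any 1 of them was left out. The 1 ratio that was higher after MI was laminin Lama2 to Lama5, where both genes fell. Gene counts were near 0 in every library for Eno1, Ckmt1 and Cpt1b and in sham for Tnni1, so the 4 ratios that hold them say little.

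**Figure D3:**
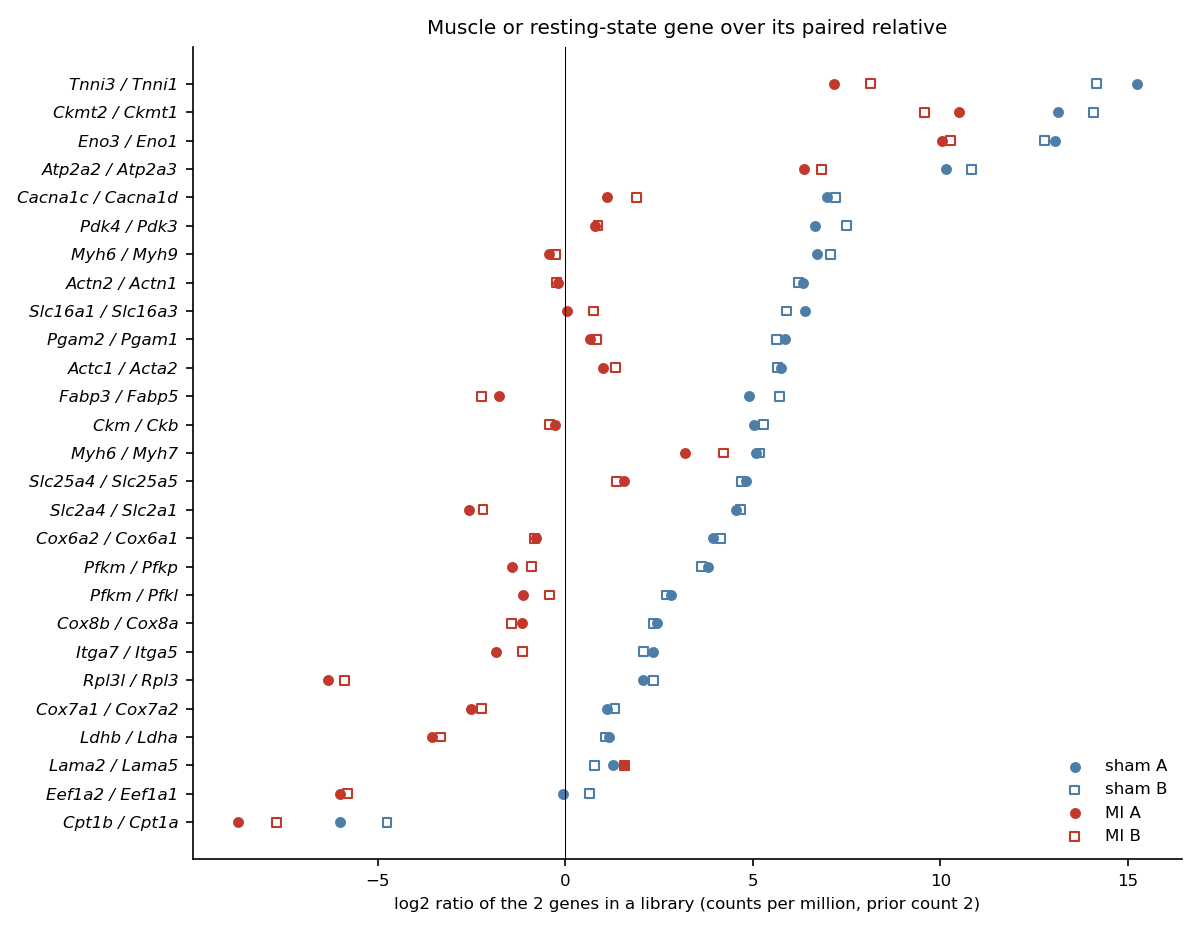
Log2 ratio of 2 related genes inside each library of 3 days (circles library A, squares library B; blue sham, red MI), for 27 pairs. The MI points lie left of the sham points in 26 pairs, the exception being Lama2 and Lama5; the 4 pairs with Eno1, Ckmt1, Cpt1b or Tnni1 rest on almost no counts of 1 gene.

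For some genes the count table held next to nothing although reads existed. Cpt1b, the muscle form of the enzyme that passes fatty acids into mitochondria, had 61 counts in the sham libraries together and 12 after MI, but fell by 5.78 on the log2 scale in the transcript table, where it went from 380 and 329 CPM to 6.02 and 6.90 CPM. Eno1, the enolase of most cells, had 3 counts in sham and none after MI in the gene table, while the transcript table gave 77.7 and 72.6 CPM in sham and 309 and 234 CPM after MI (log2 change 1.85). Adult beta globin Hbb-bs had no gene counts in any of these libraries, and 1040, 489, 1857 and 752 CPM in the transcript table. The gene counts of these genes are therefore uncertain; what the counting did with reads that fit several genes is not known here, and the cause was not tested.

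A change in which transcript a gene makes was seen beside the changes in level. For each gene with at least 200 reads in every library, the share of the gene's reads in each transcript was taken from the deposited transcript table, and genes were ranked by the gap between the lowest library of 1 group and the highest of the other. Of 5671 such genes, 4530 list more than 1 transcript; the gap was at least 10 percentage points in 495, at least 20 in 130 and at least 30 in 51. Of these 51 genes, 36 were called at the gene level, 13 higher and 23 lower, and 14 were tested and not called; over all genes 55.4% were called, 31.7% higher and 23.7% lower. These genes were picked for the gap, so the shares below are descriptions without a test, and no source used here says how reads were split between transcripts. In the test of single transcripts, with 43616 tested, 6609 (15.2%) were higher and 5737 (13.2%) lower; the number called either way became 7053 without MI A, 7493 without MI B and 7889 without sham B.

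Pkm, pyruvate kinase, had the widest gap among genes whose total was not called. Pyruvate kinase makes the last step of glycolysis, and its gene (chromosome 9, 59656576 to 59679372, GRCm38.p6) has a pair of mutually exclusive exons: the upstream exon gives PKM1, the form of adult muscle and brain, and the downstream exon gives PKM2, the form of dividing and immune cells. The gene as a whole was at 1010 and 1102 CPM in sham and 1090 and 1014 CPM after MI, a log2 change of -0.01 (adjusted p = 0.985). Transcript ENSMUST00000163694, which holds the upstream exon, took 92.3% and 95.5% of the gene's reads in sham and 19.5% and 21.0% after MI. Transcript ENSMUST00000034834, with the downstream exon, took 7.71% and 4.47% in sham and 80.5% and 79.0% after MI, or 1078 and 616 reads against 17062 and 17262.

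The exons that tell the 2 transcripts apart are shown 5′ to 3′ because they are where the coding sequences of the 2 transcripts differ. Each is 167 bases long and covers bases 1141 to 1307 of a coding sequence of 1596 bases, and outside them the coding sequences are identical. Capitals mark the 64 bases that differ; 61.7% are the same.
Pkm upstream exon (PKM1): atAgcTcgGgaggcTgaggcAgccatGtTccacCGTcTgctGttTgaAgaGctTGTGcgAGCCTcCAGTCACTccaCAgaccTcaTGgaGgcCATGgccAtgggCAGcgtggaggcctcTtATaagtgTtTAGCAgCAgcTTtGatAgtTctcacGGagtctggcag
Pkm downstream exon (PKM2): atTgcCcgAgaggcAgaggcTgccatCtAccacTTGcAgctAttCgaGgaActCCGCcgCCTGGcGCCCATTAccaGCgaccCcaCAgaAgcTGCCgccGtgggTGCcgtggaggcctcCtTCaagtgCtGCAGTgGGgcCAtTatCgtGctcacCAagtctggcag
Both were read from GENCODE vM1 transcripts with the same identifiers, an older annotation than the mm10 build of the files, and no genome position of that annotation is used.

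The other genes with the 5 widest gaps were Gsn, Vdac3, Tcf20 and Emc1. Gelsolin (Gsn), which cuts actin filaments and is made as a secreted plasma form and a cytoplasmic form from different starts, fell by 3.22 in total, yet transcript ENSMUST00000201185 went from 394 and 263 reads to 2064 and 2593. ENSMUST00000028239 held 98.3% and 97.4% of the gene's reads in sham and 24.6% and 14.6% after MI. Vdac3, a pore of the outer mitochondrial membrane, has transcripts of 1423 and 1420 bases, and the longer one went from 95.3% and 95.1% to 25.4% and 27.8%. Emc1, a membrane protein insertion factor of the endoplasmic reticulum, likewise has transcripts that differ by 3 bases (6226 and 6223); the longer held 77.7% and 68.6% in sham and 10.3% and 12.1% after MI. In Tcf20, a chromatin protein whose total was not called (log2 change -0.09, adjusted p = 0.707; called at -0.31 without the MI group of 1 day), the transcript with 6 exons gave way to the one with 5, from 77.8% and 87.0% to 11.6% and 6.52%.

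Lower in the ranking, some genes of matrix and muscle were chosen after their values were seen. Fibulin 2 (Fbln2), a matrix glycoprotein, rose in total by 2.14, and its transcript with 1 exon fewer (17 against 18) went from 11.9% and 10.2% to 64.0% and 63.0%. Slc25a3, the mitochondrial phosphate carrier, which has a muscle form and a ubiquitous form, had 88.4% and 85.1% of its reads in ENSMUST00000170810 in sham and 40.7% and 39.6% after MI. In Postn, the transcript of 3205 bases held 31.6% and 22.1% in sham and 68.9% and 68.2% after MI. Rcan1, an inhibitor of calcineurin with alternative first exons, was not called in total (-0.10), and its transcript of 2192 bases went from 41.6% and 38.6% to 83.8% and 73.5%. The fibronectin transcript of 8315 bases (Fn1) went from 29.2% and 22.1% to 47.6% and 58.0%.

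**Figure D4:**
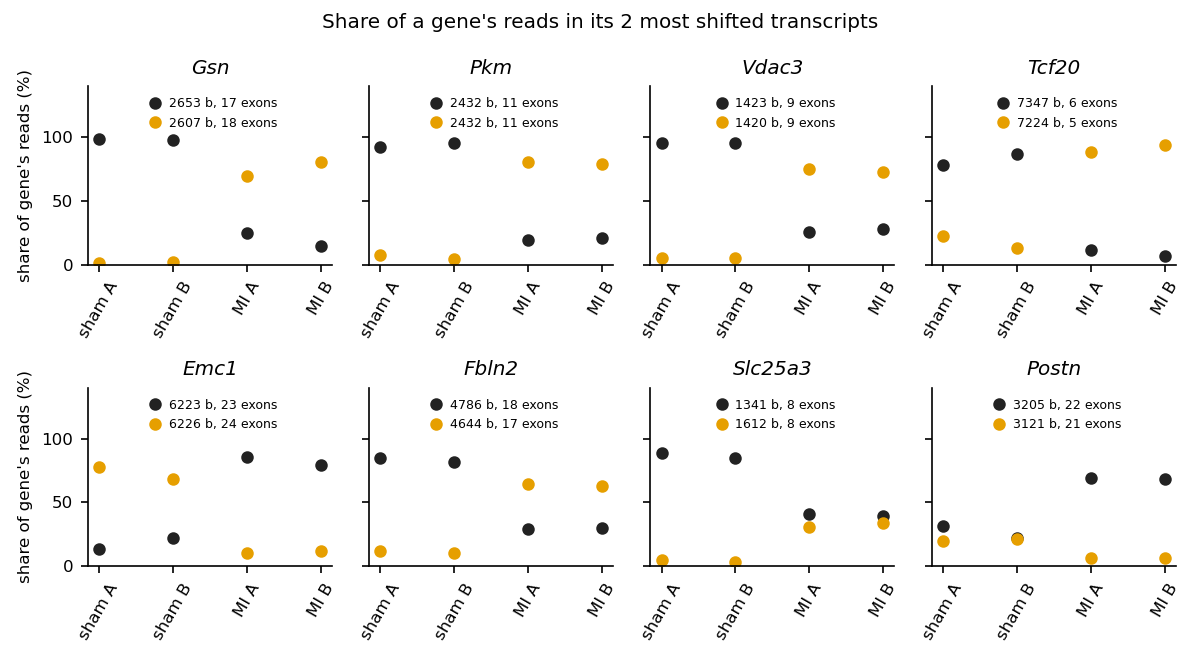
Share of a gene's transcript reads, in percent, held by the 2 transcripts with the widest gap between groups, in the 4 libraries of 3 days, for 8 genes; each point is 1 library and the legend gives transcript length in bases (b) and number of exons. In Pkm the 2 transcripts trade places, the upstream-exon form going from 92.3% and 95.5% to 19.5% and 21.0%.

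Genes of cell division rose almost without exception. All 38 tested genes of DNA replication were higher, against 31.7% higher over all genes, with a median log2 change of 3.14. Of 45 genes of mitosis and cytokinesis 44 were higher and 1 lower, with a median of 4.33. Cdk1, the kinase that starts mitosis, went from 6.84 and 4.62 CPM to 185 and 183 CPM (SE of the log2 change 0.37, adjusted p = 5.04e-06), while at 1 day its change was -0.30 and not called. Hmmr, a spindle protein also known as a hyaluronan receptor, went from 4.49 and 2.76 CPM to 140 and 137 CPM (5.25) and Nuf2, of the outer kinetochore, from 2.88 and 0.902 CPM to 76.2 and 80.1 CPM (5.36). Mki67, the common marker of cycling cells, went from 48.7 and 34.5 CPM to 534 and 566 CPM. In each of these the 2 MI libraries lie close together and far above both sham libraries. Over all genes tested, both MI libraries lay above both sham libraries in 45.9%. Cdc25c, the phosphatase that activates Cdk1, had the largest change of the list, with 14 counts in sham and 937 after MI. Tyms, for thymidylate synthesis, rose by 4.30 and Gins2, of the replicative helicase, by 4.47. The 1 gene lower was Pttg1, securin, at 101, 87.0, 34.3 and 31.4 CPM (log2 change -1.52). Which cells divided cannot be read from bulk RNA.

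Promoters of such genes commonly hold the cell cycle genes homology region, TTTGAA, and CCAAT boxes. Both strands of the RefSeq promoter windows (GRCm38.p6, 250 bases before to 50 after each start) were searched for these letters; a match of 1 motif can share 1 letter with a match of the other. By gene symbol, windows were found for 38 of the 45 mitosis genes and 31 of the 38 replication genes. TTTGAA was in 73.7% of the mitosis genes, in 12.9% of the replication genes and in 20.2% of all 27025 genes with a window. CCAAT was in 73.7%, 61.3% and 41.1% in the same order, and both were in 63.2%, 9.68% and 7.97%. A match of letters is not a bound site, and nothing in these data measured binding.

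Not every gene of the mitosis list was open to choice for display, so no ranking is meant. The promoters of Hmmr and Cdk1 are shown as examples of mitosis genes with large changes whose window holds both motifs. They run 5′ to 3′ on the gene's strand, minus for both, at chr11:40733388-40733687 and chr10:69352863-69353162 (GRCm38.p6), with TTTGAA and CCAAT, or ATTGG for CCAAT on the other strand, in capitals.
Hmmr: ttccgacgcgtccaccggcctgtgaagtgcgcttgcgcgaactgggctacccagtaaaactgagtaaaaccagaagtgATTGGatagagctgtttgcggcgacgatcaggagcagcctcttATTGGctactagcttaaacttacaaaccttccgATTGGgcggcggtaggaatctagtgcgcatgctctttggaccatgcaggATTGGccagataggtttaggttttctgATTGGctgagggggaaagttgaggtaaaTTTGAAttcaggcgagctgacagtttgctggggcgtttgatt
Cdk1: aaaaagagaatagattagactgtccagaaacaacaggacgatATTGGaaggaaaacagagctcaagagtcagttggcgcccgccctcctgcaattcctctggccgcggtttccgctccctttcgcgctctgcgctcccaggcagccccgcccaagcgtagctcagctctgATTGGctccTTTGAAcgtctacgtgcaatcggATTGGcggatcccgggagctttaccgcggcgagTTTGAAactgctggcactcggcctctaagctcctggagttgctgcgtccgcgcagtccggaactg
The Hmmr window holds 1 TTTGAA, just after the start, and 5 CCAAT matches, and the Cdk1 window holds 2 and 3.

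Histone genes that are used only in S phase rose as a block: all 33 tested were higher, with a median of 4.27 and a sum of 682 and 471 CPM in sham and 5471 and 6211 CPM after MI. Hist1h2bj went from 2.03 and 2.34 CPM to 59.9 and 86.3 CPM (log2 change 5.06). At 1 day 23 of the 33 had been lower after MI, and the difference between the days was called for all 33. Histone genes have near-identical copies, so the counts of single members are uncertain. Of cell cycle inhibitors and p53 targets 9 of 22 were higher and 3 lower, led by Pmaip1 (3.12) upward and Sesn1 (-1.89) downward.

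Most genes of the collagen matrix rose. Of 30 collagen genes 18 were higher and 4 lower, with a median of 1.49, and their sum went from 3271 and 2488 CPM to 12980 and 14100 CPM. Col1a1, the main chain of scar collagen, was at 156 and 95.2 CPM in sham and 1200 and 1391 CPM after MI (log2 change 3.37, SE 0.25, adjusted p = 5.03e-06), and Col3a1 rose by 2.53. Col11a1, a minor fibrillar chain of cartilage, had 8 counts in sham and 1450 after MI, a ratio of 127 with a counting interval of 64.0 to 294; Col12a1 rose by 4.51. Of the chains called lower, Col4a3, of basement membranes, changed most (-2.70). Of 25 genes that fold, hydroxylate or cross-link collagen 21 were higher and 1 lower. Lox, the main cross-linking oxidase, went from 35.5 and 32.5 CPM to 725 and 648 CPM, Loxl3 rose by 3.99, and P4ha3, a prolyl hydroxylase subunit, had 10 counts in sham against 890. The 1 called lower was P4ha2, another subunit of that kind, at -0.55, a call lost without any 1 of the 4 libraries of 3 days.

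Markers of activated fibroblasts rose too. Of 33 tested, 29 were higher and 1 lower, with a median of 2.54. The list summed to 2465 and 1866 CPM in sham and 21800 and 19560 CPM after MI. Lists share members: Spp1, with the highest change here (6.73), is part of these sums. It is also counted with recruited macrophages and with cartilage and bone genes below. Postn, a matrix protein that marks activated cardiac fibroblasts, went from 178 and 121 CPM to 4392 and 4051 CPM (log2 change 4.82, SE 0.25, adjusted p = 1.49e-06). Cthrc1, secreted by scar fibroblasts, went from 2.40 and 3.66 CPM to 132 and 139 CPM, and Tnc, tenascin C, from 12.2 and 34.8 CPM to 896 and 1054 CPM. Fn1 rose by 3.89. The actin-bound protein Tagln rose by 3.82, while smooth muscle actin Acta2 rose from 169 and 201 CPM to 379 and 428 CPM, a call lost without MI B (0.81). Lrrc15, at times used as a fibroblast marker, went the other way (-3.44). Pdgfra, on fibroblasts at rest and active, changed by 0.74, a call lost without MI A, MI B or sham B and in the fit of the 4 libraries alone, and Tcf21 was not called (0.65), though it was without sham A (1.43).

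Markers of the resting fibroblast were lower in 10 of 20 and higher in 2, with a median of -0.83. Scara5 fell from 53.4 and 25.7 CPM to 1.02 and 0.918 CPM and Penk from 7.69 and 3.03 CPM to 0.328 and 0.170 CPM; Col15a1, a basement membrane collagen, rose (1.51). The 2 sham libraries differed here, with a median of 0.92 on the log2 scale in favour of sham A, against 0.06 over all genes. Of 28 genes of TGF-beta, activin and BMP signalling 16 were higher and 4 lower, or 2 lower without sham A, sham B or MI B. Ltbp2 rose by 4.73, the coreceptor Tgfbr3 fell by 1.53, and Tgfb1 rose from 9.13 and 9.87 CPM to 21.7 and 18.3 CPM, a call lost without either MI library. Among 12 cartilage and bone genes 4 were higher, near the 31.7% of all genes, and 1 lower; with library size alone 7 were higher. Of 35 transcription factors of injury and mesenchyme 17 were higher and 2 lower; with a mean of at least 1 CPM Runx2 rose most (3.50), and Klf4 fell most. Without MI A the count of higher factors fell to 10.

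Matrix proteases and their inhibitors rose in 19 of 28 and fell in 2, with a median of 2.23. Mmp12, the elastase of macrophages, went from 2.40 and 2.02 CPM to 216 and 127 CPM (log2 change 6.28), and Timp1, which inhibits such proteases, from 22.0 and 35.7 CPM to 1088 and 926 CPM. Timp4, the family member of resting heart, fell by 4.54. Adam8, a membrane protease of leukocytes, rose from 5.02 and 8.07 CPM to 181 and 187 CPM.

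Markers of recruited monocytes and macrophages rose almost throughout. Of 38 markers 37 were higher and 1 lower, with a median of 3.49; Ptprc (CD45), on all leukocytes, rose by 2.82 and Cd68 by 2.97. Spp1, osteopontin, on chromosome 5 (104435111 to 104441053), was at 41.0 and 38.6 CPM in sham and 4797 and 3631 CPM after MI, a log2 change of 6.73 (SE 0.52, adjusted p = 6.25e-06). Arg1, which turns arginine to ornithine, went from 9.40 and 8.28 CPM to 996 and 484 CPM (6.39). The 1 lower gene, Lpl, is a lipase that heart muscle makes in quantity, and it fell from 5680 and 5184 CPM to 346 and 340 CPM. Hmox1, which breaks down heme, rose from 17.2 ± 1.10 to 497 ± 203 CPM (SD, n = 2), and the cystine carrier Slc7a11 from 1.23 and 1.49 CPM to 53.9 and 44.7 CPM. Genes of the phagocyte oxidase and iron list were higher in 12 of 19 and lower in 3, the widest fall being that of mitochondrial Sod2 (-2.72).

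Markers of resident macrophages were divided. Of 17 markers 6 were higher and 6 lower, against 31.7% and 23.7% over all genes, with a median of -0.24. These counts turn on single libraries. The number higher was 3 without MI A, 3 without MI B, 7 without sham A and 2 without sham B, and the number lower was 3, 6, 2 and 7 in the same order; without MI A of 1 day 3 were higher. Lyve1 fell from 64.0 ± 18.4 to 12.3 ± 2.71 CPM (SD, n = 2; log2 change -2.39, edgeR adjusted p = 8.16e-05) and Timd4 from 5.61 and 1.80 CPM to 0.246 and 0.510 CPM, a call lost without sham A (-2.19) or MI A. Retnla, of alternatively activated macrophages, had 104 counts in sham and 8 after MI, a call lost without sham A. Pf4, which macrophages share with platelets, rose by 3.46. Lyve1 is also carried by lymphatic endothelium, whose regulator Prox1 fell by 4.51; heart muscle makes Prox1 as well. Of 20 genes for uptake of dead cells 12 were higher and 3 lower, the latter 1 without MI A or sham A and 5 in the fit of the 4 libraries alone. Havcr2, a receptor for exposed phosphatidylserine, led the rises. Of 31 lysosomal and lipid handling genes 26 were higher and none lower, with a median of 1.89. Ctss, a protease of the macrophage lysosome, went from 127 and 62.0 CPM to 1393 and 1623 CPM, and Gla, alpha-galactosidase, rose by 3.84. At 1 day 4 of these 31 had been higher and 11 lower.

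Neutrophil markers and cytokines were higher too, and libraries of 1 group differed in them, in sham as well as in MI. Of 27 neutrophil markers 21 were higher and none lower, with a median of 2.98; leaving out MI A gave 13 higher and leaving out sham B 12. S100a8, an abundant granulocyte protein, was at 68.0 and 31.3 CPM in sham and 282 and 139 CPM after MI (log2 change 2.08), and was not called without MI A or sham B. Clec4d, a lectin receptor of myeloid cells, rose from 7.90 and 5.09 CPM to 187 and 160 CPM (4.74). Summed neutrophil markers were 305 and 157 CPM in sham, 2025 CPM in MI A and 940 CPM in MI B. Of 46 cytokines and chemokines 35 were higher and 1 lower, with a median of 3.05. The 1 lower was Il15 (-1.20), which muscle makes.

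Between MI A and MI B, 14 of 35 cytokine genes that averaged 5 CPM or more differed by over 2-fold, as did 9 of 18 neutrophil markers, against 0.777% of all genes. Between sham A and sham B it was 11 of the 35 and 8 of the 18, against 3.80% of all genes. Of 27 sarcomere genes none differed so between the MI libraries and 2 between the sham libraries, and of 44 mitosis genes none and 2. Il1a was at 39.8 CPM in MI A and 0.578 CPM in MI B, with 0.107 and 0.159 CPM in sham; its log2 change of 7.15 became 1.86 without MI A and was then not called, nor was it without sham A or sham B. Among genes picked after their values were seen, Cxcl2, which attracts neutrophils, was at 175 and 5.68 CPM, Ccl3 at 33.9 and 2.89 CPM, and Osm at 37.0 and 3.16 CPM in MI A and B. Il1b was at 28.2, 3.50, 456 and 54.1 CPM (log2 change 4.01, adjusted p = 0.00893; 1.57 and not called without MI A, nor called without sham B or in the fit of the 4 libraries alone). Cxcl3, with 2 counts in sham and 1609 after MI (ratio 561, counting interval 155 to 4640), was at 56.8 and 7.58 CPM. In a fit with limma-voom neither Cxcl3 (log2 change 7.975, adjusted p = 0.161) nor Il1a (4.73, adjusted p = 0.4515) was called. Il6 was at 141 and 56.3 CPM against 4.97 and 2.55 CPM in sham (4.71), and Il11, a cytokine that acts on fibroblasts, had 3 counts in sham and 125 after MI (ratio 29.1, counting interval 9.72 to 143).

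Immediate-early genes, also picked after their values were seen, differed between libraries of both groups. Fos was at 97.2 CPM in sham A, 26.2 in sham B, 137 in MI A and 21.0 in MI B, and Egr1 at 56.4, 2.76, 47.8 and 8.84 CPM; library A was the higher in each group, though A and B of different groups are unrelated. Their part in the cytokine values was not tested. In the other direction, the iron exporter Slc40a1 was at 26.9 CPM in MI A and 89.3 CPM in MI B. Sham A exceeded sham B in complement genes, by a median of 1.00 on the log2 scale, in antigen presentation (0.99) and in resident macrophage markers (0.92).

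**Figure D5:**
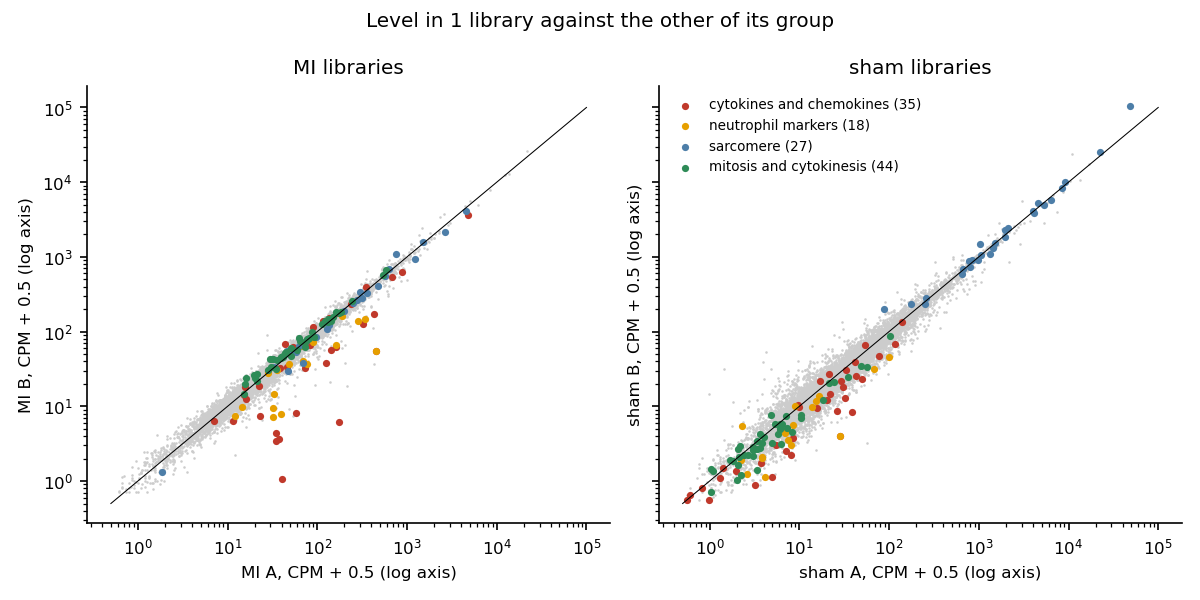
CPM plus 0.5, on log axes, of library A against library B in the MI group (left) and the sham group (right), for 11319 genes that averaged 5 CPM or more (grey) and for 4 lists (coloured, number of genes in brackets); the line marks equal levels. In the MI group 14 of 35 cytokine genes and 9 of 18 neutrophil genes lie over 2-fold off the line, and in the sham group 11 and 8.

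Genes of antigen presentation rose in part, and those of lymphocytes were near the limit of the counts. Of 22 genes of antigen presentation by MHC class II and dendritic cells 12 were higher and 1 lower, with a median of 1.78; Cd80, a co-stimulatory ligand, rose by 3.32 and Flt3 had 11 counts in sham and 197 after MI. Of 18 T, B and NK cell genes 5 were higher, led by Klrk1, and between 3 and 8 in other fits, against 31.7% over all genes. Cd3e, which defines T cells, had 2 counts in sham and 6 after MI, and Cd79a of B cells had 16 and 67, a call lost in 15 of the 17 other fits, DESeq2 and limma-voom among them, with a log2 change of 1.53 that became 0.84 without sham A. Of 32 interferon-stimulated genes 27 were higher and none lower, with a median of 1.30, and 15 higher without MI B; Mx1 rose by 3.58 and the chemokine Cxcl10 from 0.908 and 1.01 CPM to 15.1 and 17.9 CPM. Complement genes split, 7 of 20 higher and 8 lower, against 31.7% and 23.7% over all genes. They ran from C3ar1, a receptor of myeloid cells (3.93), to the terminal component C6 (-4.31). Of 9 platelet genes 3 were higher, near the 31.7% of all genes, and 1 lower, Gp1ba (-1.07), whose call was lost in 8 of the 17 other fits, among them those without MI A, MI B or sham B (-0.70). S100 proteins and annexins were higher in 14 of 19 and lower in 3; S100a4 rose by 4.03 and S100a1, the form of heart muscle, fell by 2.74. Without MI A the number higher was 9, and without sham A the number lower was 1.

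Endothelial genes were divided. Of 35 tested 8 were higher and 13 lower, against 31.7% and 23.7% over all genes, with a median of -0.28; without MI A 5 were higher. Pecam1, on all endothelium, was at 220, 195, 339 and 276 CPM (log2 change 0.57, adjusted p = 0.0271), a call lost when the 4 libraries were fitted alone (0.34) and without any 1 of them. Esm1, of sprouting tip cells, had 19 counts in sham and 405 after MI. Aqp7, a glycerol channel of heart capillaries, fell by 4.23. Of 18 genes of pericytes and smooth muscle 5 were higher and 10 lower; 3 were higher without MI B, and 6 were lower with library size alone. Epicardial genes were higher in 4 of 14, no more than the share over all genes, among them Aldh1a2, which makes retinoic acid (2.34), and Wt1, which defines the epicardium, was not called (-0.56); without MI A or without sham B 2 were higher. Of 7 lymphatic genes 2 were higher and 3 lower, and of 9 genes of Schwann cells and nerve 2 and 3. The shares over all genes were 31.7% and 23.7%. Of 6 adipocyte genes none was higher and 2 were lower. Of 5 red cell genes none was called, and none had an unadjusted p under 0.05 in edgeR. Adipoq, which defines fat cells, had 5 counts in sham and 3 after MI, while Plin4, a lipid droplet protein that muscle also makes, fell by 4.50.

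Genes of glycolysis and hypoxia were divided, where over all genes 31.7% were higher and 23.7% lower. Of 34 tested 12 were higher and 15 lower, and without MI A the number higher was 6, without sham A 7. Pfkm, the muscle phosphofructokinase, fell by 4.48 and Slc2a4 by 5.40, while Hmox1 rose by 4.85. Genes that make and secrete protein mostly rose: of 28 genes of secretion and folding in the endoplasmic reticulum 25 were higher and 1 lower, with a median of 1.58. Sec61b, of the channel into the reticulum, rose by 3.01 and Atf6, a sensor of unfolded protein, fell by 1.12. Cytosolic ribosomal proteins were higher in 41 of 44 with none lower and a median of 1.62, and 42 of 44 were higher in the transcript table. The gene counts of this family are uncertain, for a cause that was not tested: Rps23 was at 1.18 and 1.49 CPM in sham and 8.43 and 7.38 CPM after MI in gene counts, and at 160, 101, 553 and 459 CPM in the transcript table. Of 32 proteasome genes 18 were higher and 1 lower, a median of 0.58, and 10 were higher without MI A and 11 without MI B; Psmb8, of the immunoproteasome, rose by 1.57.

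The 8 steepest rises with a mean of at least 5 CPM were mostly of genes with few counts after sham, Spp1 being the exception. Beside Cxcl3, Il1a, Col11a1, Spp1 and Sprr1a they were Cemip, a protein that helps break down hyaluronan, with 4 counts in sham and 609 after MI (ratio 106, counting interval 41.3 to 391), the histone gene Hist1h2ah, with 17 and 2225 counts (ratio 91.3, interval 56.9 to 157), and Siglec5, a sialic acid receptor of myeloid cells, with 6 and 842 counts (ratio 97.9, interval 44.8 to 268). The Siglec5 libraries were at 0.267 and 0.0531 CPM in sham and 15.5 and 15.8 CPM after MI. These intervals cover counting error only.

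Compared with 1 day, the effect of MI had changed for 3799 genes (24.5%) in a test of the difference of the 2 effects, 2046 (13.2%) toward higher at 3 days and 1753 (11.3%) toward lower. This count was 1830 without MI A, 1576 without MI B, 2100 without sham B, and 1958 and 1582 without sham A or B of 1 day. At 1 day itself 6051 genes (39.0%) were called. For 335 genes (2.16%) the change was called in opposite directions on the 2 days and in the difference. Of these, 257 (1.66%) were lower at 1 day and higher at 3 days, such as Col1a1, with -2.63 and then 3.37, and 78 (0.503%) the reverse. Pdk4, the kinase that shuts pyruvate out of the citric acid cycle, was 1.63 higher at 1 day and 3.40 lower at 3 days; its levels at 3 days were 459 and 542 CPM in sham and 45.4 and 49.4 CPM after MI. The 2 days share no library, so the effects have separate controls.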

How the data were processed

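RNA of the left ventricular free wall of 8 mice was depleted of ribosomal RNA and sequenced, per the labels. The authors deposited gene counts per library, a transcript table with total reads (counts) per transcript and transcript length in bases, and a table of their own comparison with log2 fold changes and adjusted p-values; the last was read as sham over MI from its values and its sign was turned here. Bowtie2 2.2.5, TopHat2 2.0.14, SAMtools 0.1.2, HTSeq, DESeq2 and build mm10 are named in the submitters' processing notes, without role or order. No source used here gives the annotation release, strand setting or filters, so overlapping and antisense genes are uncertain. Gene counts were fitted with edgeR 4.0.16 in R 4.3.3: filterByExpr over the 4 groups, TMM, robust dispersion, quasi-likelihood F test of MI against sham at 3 days, Benjamini-Hochberg over 15508 genes, threshold 0.05. Counts are taken as deposited. The SE is the log2 change divided by the root of F. Transcript reads were fitted in the same way, with the library sizes and TMM factors of the gene counts. Only total reads were used, where unique reads had been planned for the transcript shares. The fit was tested on simulated data. Members, lists and tests were chosen with earlier results of these data known. Genes named are the 8 largest rises and falls, the leading called members of each list, the genes with the most counts, both members of each pair, genes with opposite effects at 1 and 3 days, the 5 widest transcript gaps, and a short standing list; others are marked as chosen after their values were seen. All 8 libraries enter the fit, with 18831791 to 25041386 gene counts a library at 3 days and 7382490 to 20676514 at 1 day; 2 sham columns of 1 day carry the same header and were both used. Columns were tied to groups by name, not to single mice. Intervals cover counting error only. The alternatives changed scaling, filter, tool, table and libraries. Some results that the naming rule selects are not reported here.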

Additional observations from a re-analysis of the deposited data

Results flagged for a closer look

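For 10 genes the effect of MI differed between the days by a test of the difference itself, with changes called in opposite directions at 1 and 3 days. They are the 5 with the widest difference each way among genes of at least 5 CPM, and each value is the log2 effect at 3 days minus that at 1 day. Of the 5 more positive at 3 days, all are replication-dependent histone genes: Hist1h2af (8.34), Hist1h2bm (8.04), Hist1h2ae (7.72), Hist1h3h (7.34) and Hist1h2ai (7.30). Hist1h2af was 3.74 lower on the log2 scale after MI at 1 day, a change of -3.74, and 4.60 higher at 3 days. Histone copies share sequence, and the share of each gene in the reads was not tested. Of the 5 more negative at 3 days, Scd4, a fatty acid desaturase, differed by -6.83 and Pdk4 by -5.03. The other three are genes of muscle: Klhl41 (-4.62) and Klhl40 (-4.35), which stabilise the sarcomere, and Xirp1 (-3.99), of the intercalated disc. Klhl41 went from a change of 2.10 at 1 day to -2.52 at 3 days.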

How the results depend on the processing

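No paired analysis was possible because the columns carry no replicate numbers. The alternatives with unique transcript reads were not run; total reads were used. Leaving out 1 library at a time gave 6037 to 9803 genes called, of which 2944 to 5575 were higher and 2793 to 5034 lower. The count of called list members stayed at 508 to 598, the difference between days at 1576 to 5297 genes, and transcripts at 7053 to 9550. A fit that leaves 1 library in a group assumes that it varies like the other groups. Of 203 named genes tested, 167 kept direction and side of the threshold in every fit run and 36 did not; none was called in the opposite direction. The number of named genes that lost the call was at most 19, without MI A. With the transcript table under its own TMM factors, an alternative chosen after seeing the data, 3835 genes were higher and 4152 lower. DESeq2 gave 4070 and 4023, no filter 4616 and 3355 of 23099 tested, and the 4 libraries alone 4373 and 4781. The library with the fewest gene counts, 7382490, was an MI library of 1 day. With 2 mice a group, a gene without a call may still have changed.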
